A study of Mus musculus with 4 samples.

Results

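The insulin-like growth factor (IGF) binding proteins are secreted proteins, and the genes examined here are the 7 listed members Igfbp1, Igfbp2, Igfbp3, Igfbp4, Igfbp5, Igfbp6 and Igfbp7, taken by name from a table of read counts for 24421 genes. All 7 had a row, and 6 passed the filter on low counts. The libraries came from lymphatic endothelial cells, which line lymph vessels and were sorted from lungs of mice on postnatal day 0 by the absence of CD45 and the presence of CD31 and GFP. Jun-cKO animals had the genotype Prox1-CreER;Junf/f;Rosa26-mTmG, in which both Jun alleles are floxed, and Jun-Ctrl animals had Prox1-CreER;Junf/+;Rosa26-mTmG, in which 1 allele is floxed. Both groups thus carried a tamoxifen-dependent Cre under the lymphatic Prox1 gene and the same colour-switching reporter, and Jun-Ctrl animals could also lose 1 Jun allele. Each library came from 3 to 5 pooled mice, and the design text has cells of 3 replicates of a group mixed before RNA amplification. There were 2 libraries in each group (n = 2 throughout), called replicate 1 and replicate 2, the second being the library whose title carries that word. The comparison asks which transcripts differ in lung lymphatic endothelium when both Jun alleles, not 1, are open to Cre.

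IGF binding proteins hold most of the IGF1 and IGF2 outside cells in complexes, keep them from the type 1 IGF receptor or deliver them to it, and release them when proteases cut the binding protein. Igfbp1 to Igfbp6 bind IGFs with high affinity, while IGFBP7 binds them weakly and is a matrix protein of vessel walls. Several members also act without IGF, through integrins or other cell surface proteins.

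Total counts were 15558476 and 6911821 in the Jun-cKO libraries and 16037416 and 6483514 in the Jun-Ctrl libraries. Within a group, the counts differed beyond sampling noise: the median chi-square per gene was 1.59 in Jun-cKO and 1.27 in Jun-Ctrl against 0.455 from sampling alone. Nothing in the labels says that the libraries of a group came from separate sorts, so the p-values reflect no more than the spread among these libraries, and that spread may be technical. Jun itself had 524 and 475 CPM (counts relative to the library total, with TMM scaling between libraries) in the Jun-cKO libraries and 472 and 433 CPM in Jun-Ctrl libraries (log2 fold change 0.14, SE 0.12, edgeR quasi-likelihood adjusted p = 0.354, by Benjamini and Hochberg over all tested genes). Across 12192 tested genes the log2 fold change fell as the GC content of the transcript rose (Spearman rho -0.338). After a correction for GC content Jun was higher, at 0.41 (adjusted p = 0.00371). The targeted transcript was thus not lower, so the group is called Jun-cKO-labelled below, and each direction rests on that label. An adjusted p of 0.05 was passed by 41.5% of 12656 tested genes, 19% as higher in Jun-cKO-labelled libraries and 22.5% as lower. Some lymphatic markers were abundant in every library, led by Lyve1, a hyaluronan receptor, and by Nts, neurotensin. Lyve1 had 8641 and 10260 CPM in the Jun-cKO-labelled and 6402 and 5971 CPM in Jun-Ctrl libraries. Nts stood at 3334 ± 162 and 2497 ± 202 CPM (SD). Prox1, also a lymphatic marker, was far less abundant, at 34.2 and 31.9 CPM in the Jun-cKO-labelled and 39.3 and 43.6 CPM in Jun-Ctrl libraries. Its log2 fold change was -0.31 (SE 0.14, edgeR adjusted p = 0.0686). Ccl21a, a chemokine of lymphatic vessels, had 0 counts in all 4 libraries.

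Igfbp3 and Igfbp5 rose, Igfbp7 rose slightly, Igfbp6 fell, and Igfbp4 and Igfbp1 did not pass the test. Igfbp3 was 2.99-fold and Igfbp5 2.23-fold higher in the Jun-cKO-labelled libraries, Igfbp7 1.24-fold higher and Igfbp6 7.35-fold lower. This made 3 higher and 1 lower of 6 tested members, against 19% higher and 22.5% lower among all tested genes. Rises were more common among abundant genes. Of 5464 tested genes with a mean of at least 30 CPM, 27.1% were called higher and 16.4% lower. Igfbp3, Igfbp4, Igfbp5 and Igfbp7 are among these, and the limit was chosen after the values were seen. After GC correction the counts of members called were again 3 and 1, against 19.3% higher and 19.9% lower of 12192 genes. The median log2 fold change of the 6 was 0.07, and that of all tested genes 0.01, while after GC correction these medians were 0.41 and 0.02. In sorted bulk cells, a change in how many cells of a type are present and a change in RNA per cell cannot be told apart.

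The regions before the start sites of 5 transcripts are shown because the members behaved differently and because Jun encodes a subunit of AP-1, a factor that binds DNA at the letters TGANTCA. Igfbp3 and Igfbp5 are the members that rose most, Igfbp6 is the member that fell, and Igfbp4 holds the most reads. The window of Igfbp2 lies before a second annotated start and is the only window of a member that holds the AP-1 letters. Each shows the 250 bases before a RefSeq start site (GRCm38.p6, the build that mm10 names), 5′ to 3′ on the gene's strand, and capitals mark a match to 1 of 5 motifs searched on both strands.
Igfbp3 promoter, chr11:7213924-7214173, minus strand: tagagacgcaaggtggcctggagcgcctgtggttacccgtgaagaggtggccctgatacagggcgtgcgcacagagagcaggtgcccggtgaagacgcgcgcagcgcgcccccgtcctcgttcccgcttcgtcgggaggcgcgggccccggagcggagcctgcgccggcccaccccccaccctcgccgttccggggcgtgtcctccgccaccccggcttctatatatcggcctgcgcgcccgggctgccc
Igfbp5 promoter, chr1:72874866-72875115, minus strand: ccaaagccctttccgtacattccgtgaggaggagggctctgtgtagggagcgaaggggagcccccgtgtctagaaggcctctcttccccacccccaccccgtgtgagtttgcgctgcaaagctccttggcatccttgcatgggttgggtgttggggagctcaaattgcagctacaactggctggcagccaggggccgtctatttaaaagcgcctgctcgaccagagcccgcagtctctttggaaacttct
Igfbp4 promoter, chr11:99040994-99041243, plus strand: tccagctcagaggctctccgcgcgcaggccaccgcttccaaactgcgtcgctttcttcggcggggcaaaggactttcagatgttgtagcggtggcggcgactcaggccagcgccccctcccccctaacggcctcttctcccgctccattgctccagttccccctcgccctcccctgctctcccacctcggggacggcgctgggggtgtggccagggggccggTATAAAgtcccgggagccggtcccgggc
Igfbp6 promoter, chr15:102143936-102144185, plus strand: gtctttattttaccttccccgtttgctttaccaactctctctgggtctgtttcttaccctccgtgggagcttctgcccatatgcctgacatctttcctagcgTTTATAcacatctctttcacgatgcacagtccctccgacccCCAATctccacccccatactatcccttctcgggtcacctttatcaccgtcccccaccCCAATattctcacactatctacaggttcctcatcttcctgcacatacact
Igfbp2 promoter, chr1:72825137-72825386, plus strand: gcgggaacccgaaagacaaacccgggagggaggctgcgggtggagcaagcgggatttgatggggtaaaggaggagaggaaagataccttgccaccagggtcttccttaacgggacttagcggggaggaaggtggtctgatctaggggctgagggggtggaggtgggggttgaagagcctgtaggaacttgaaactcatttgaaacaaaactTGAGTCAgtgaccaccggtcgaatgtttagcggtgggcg

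The motifs were the AP-1 element TGANTCA, the cAMP response element TGACGTCA, the TATA box TATAAA, the GC box GGGCGG and the CCAAT box CCAAT, and none of the matches shown overlap. Windows of all 7 members were found in RefSeq, 8 in all because Igfbp2 has 2. TGANTCA was in 1 of the 8, the Igfbp2 window, where it began 39 bases before the start, and in 6.75% of 32851 windows of all genes. TGACGTCA was in 0 of the 8 and in 1.55% of all windows. Igfbp4 held TATAAA 28 bases before its start, and Igfbp6 held it on the other strand 148 bases before its start, against 12.4% of all windows. Igfbp6 held CCAAT at 2 positions, against 33.8% of all windows with at least 1. Igfbp7 had 4 GC boxes and the other Igfbp2 window 3, against 32.7% of all windows with at least 1. The windows of Igfbp3, Igfbp5 and Igfbp1 held none of the 5 motifs, which says only that these letters are not in these 250 bases. GC content was 73.2% in the Igfbp3 window and 58.8% in the Igfbp5 window, against a median of 52.4% over all windows. It was 74% for Igfbp7, 69.2% for Igfbp4, 67.2% and 56.4% for Igfbp2, 53.2% for Igfbp1 and 49.6% for Igfbp6.

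Igfbp3, the main carrier of IGFs in blood, had 122 and 119 CPM in Jun-cKO-labelled cells and 40.9 and 39.3 CPM in Jun-Ctrl libraries. The groups lay far apart and the libraries of each group close together. The fold was 2.99 (95% interval 2.52 to 3.55, log2 fold change 1.58, SE 0.12, adjusted p = 8.08e-15 by edgeR). Only 105 of 12656 tested genes had a larger log2 fold change, 0.83% of them. Among the 5464 tested genes with a mean of at least 30 CPM, a limit chosen after the values were seen, Igfbp3 ranked 5 from the top. The count behind it was 1855 and 805 reads in the Jun-cKO-labelled and 674 and 257 reads in the Jun-Ctrl libraries, so counting error was small beside the difference.

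Igfbp5, the most conserved member, which binds matrix and IGFs, had 85.7 and 69.7 CPM in Jun-cKO-labelled cells and 37.1 and 32.6 CPM in Jun-Ctrl libraries. The groups did not overlap, as in 35.4% of all tested genes in this direction, and replicate 1 was the higher library in both. The fold was 2.23 (95% interval 1.85 to 2.68, log2 fold change 1.15, SE 0.13, adjusted p = 1.12e-09). It ranked 23 among the 5464 genes of at least 30 CPM. The ratio of Igfbp3 to Igfbp5, per kilobase of gene length, was 3.40 and 4.09 in the Jun-cKO-labelled libraries and 2.64 and 2.89 in the Jun-Ctrl libraries, so Igfbp3 was the higher in each library.

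Igfbp7, which encodes a low-affinity member abundant in endothelium, had 669 and 598 CPM in Jun-cKO-labelled cells and 503 and 518 CPM in Jun-Ctrl libraries. The groups did not overlap, a pattern that 35.4% of all tested genes also showed in this direction. The fold was 1.24 (95% interval 1.05 to 1.47, adjusted p = 0.0326). The call ended with upper-quartile scaling (edgeR adjusted p = 0.0634), with library totals (0.0852) and with a filter of 50 counts (0.0638). It also ended without Jun-cKO-labelled replicate 1, Jun-Ctrl replicate 1 or Jun-Ctrl replicate 2, where the log2 fold change was 0.23, 0.28 and 0.31. After GC correction the call held, and the log2 fold change was 0.76 (edgeR adjusted p = 3.31e-06) against 0.31 without it. Igfbp7 overlaps Polr2b, a subunit gene of RNA polymerase II, and the antisense gene Gm34648, whose reads cannot be told apart from its own without strand, and Polr2b was at 0.35 on the log2 scale (adjusted p = 0.0435), with a mean of 45 CPM in the Jun-cKO-labelled and 34.8 CPM in Jun-Ctrl libraries.

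Igfbp4, a member that mostly restrains IGF action until the protease PAPP-A cuts it, had the most reads of the 7. It stood at 889 and 752 CPM in Jun-cKO-labelled cells and 905 and 948 CPM in Jun-Ctrl libraries. Both Jun-cKO-labelled libraries lay below both Jun-Ctrl libraries, as in 35.9% of all tested genes, but the gap between the Jun-cKO-labelled libraries was larger than the gap between the groups. The log2 fold change was -0.17 (SE 0.13, adjusted p = 0.27), with a 95% interval of 0.744 to 1.05 for the fold. Its sign turned after GC correction (0.07, adjusted p = 0.652).

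Igfbp6, which prefers IGF2 over IGF1, was rare. It had 12 and 3 reads, or 0.786 and 0.443 CPM, in Jun-cKO-labelled cells and 65 and 44 reads, or 3.94 and 6.73 CPM, in the Jun-Ctrl libraries. The groups did not overlap, as in 35.9% of all tested genes in this direction, and both libraries of Jun-cKO-labelled cells were under 1 CPM. It was 7.35-fold lower (95% interval of the fold 0.0761 to 0.244, log2 fold change -2.88, SE 0.42, adjusted p = 2.56e-07), and 256 tested genes, 2.02% of them, had a more negative log2 fold change. Summed over a group, 15 reads in Jun-cKO-labelled cells gave a counting interval of 0.381 to 1.12 CPM, and 109 reads in Jun-Ctrl cells gave 3.89 to 5.71 CPM (exact Poisson 95%, counting error only).

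Igfbp1, best known as a liver protein that falls with insulin, and Igfbp2, which carries an integrin-binding motif, were close to the limit of detection. Igfbp1 had 9 and 1 reads in the Jun-cKO-labelled libraries and 16 and 6 reads in the Jun-Ctrl libraries (log2 fold change -1.08, SE 0.61, adjusted p = 0.156). Its summed level was 0.454 CPM (exact Poisson 95% interval 0.218 to 0.835) in Jun-cKO-labelled and 0.955 CPM (0.599 to 1.45) in Jun-Ctrl cells, and these intervals overlap. Igfbp2 had 7 and 0 reads in the Jun-cKO-labelled libraries and 11 and 3 reads in the Jun-Ctrl libraries and did not pass the filter. The library with 0 reads of Igfbp2 allows up to 0.443 CPM, a floor of 3 counts on the scaled CPM used throughout. Without a filter the fitted difference was -0.93 on the log2 scale (SE 0.88, adjusted p = 0.43), so a difference was not detectable at this depth.

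**Figure D1:**
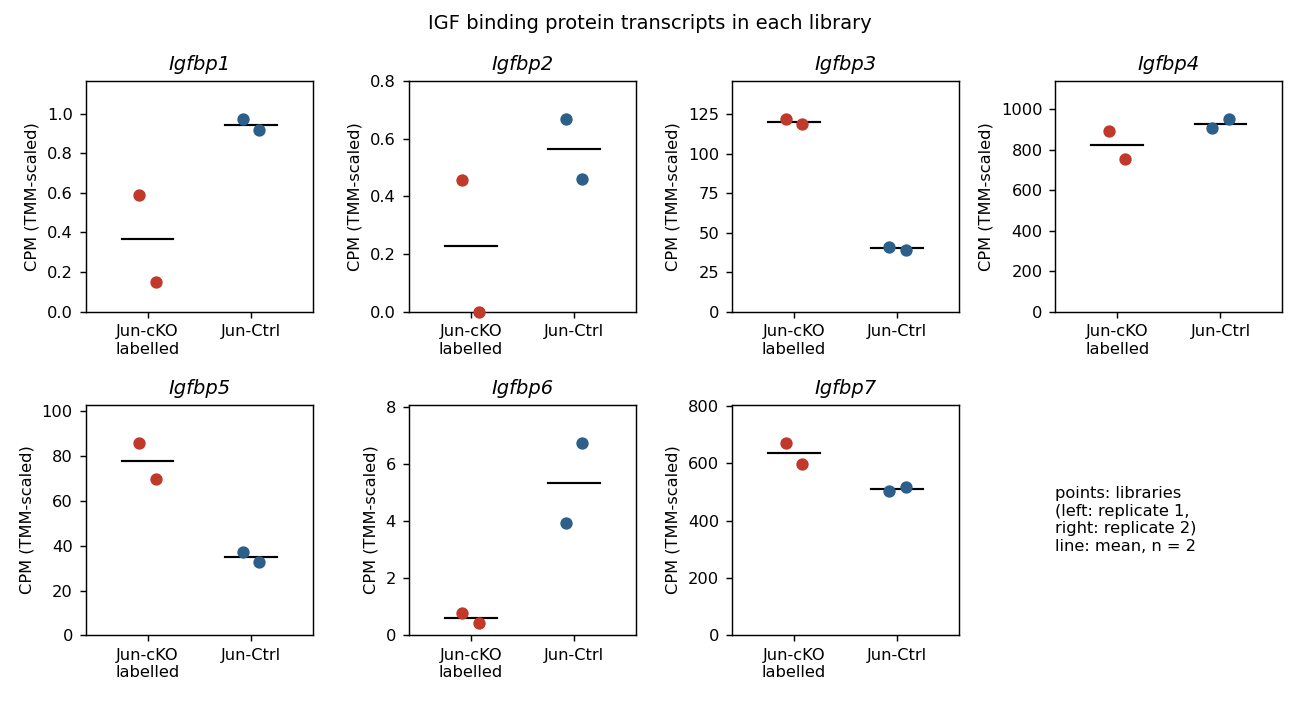
Level of each IGF binding protein gene in CPM, on a separate linear axis from 0 for each gene, with 1 point for each library and a line at the mean (n = 2). Igfbp3 sat at 122 and 119 CPM in Jun-cKO-labelled cells, above 40.9 and 39.3 CPM in Jun-Ctrl, and Igfbp6 at 0.786 and 0.443 CPM, below 3.94 and 6.73 CPM.

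**Figure D2:**
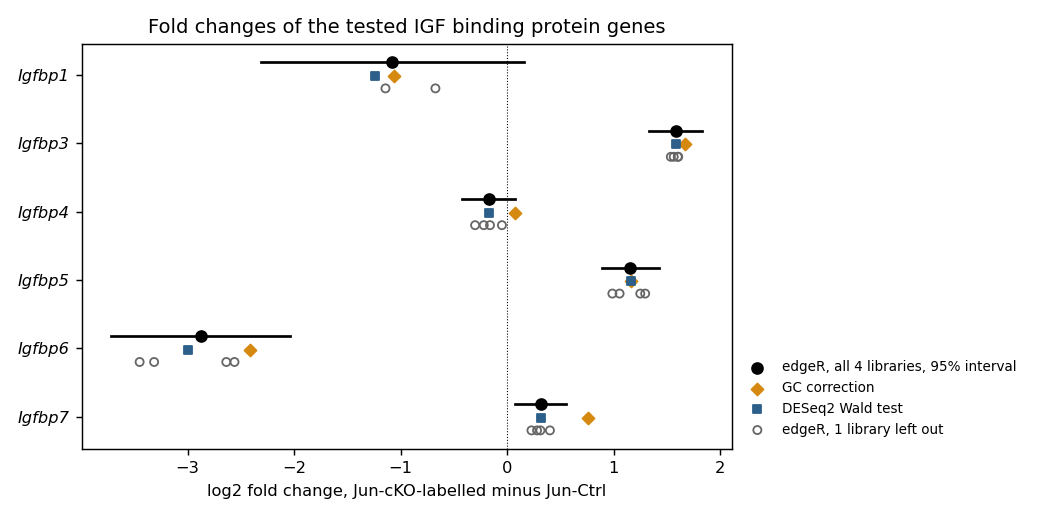
Log2 fold change of the 6 tested members, Jun-cKO-labelled minus Jun-Ctrl, with the 95% interval of the edgeR test (black), the value after GC correction, the DESeq2 value, and the values with 1 library left out (open circles). Igfbp3 and Igfbp5 lie right of 0 and Igfbp6 left of 0 under every setting drawn, and Igfbp4 lies on both sides.

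The members are placed in pairs on some chromosomes. Igfbp1 (plus strand, 7197782 to 7202546) and Igfbp3 (minus strand, 7206086 to 7213923) face each other on chromosome 11 with 3.54 kb between their ends, and Igfbp2 (plus strand, 72824503 to 72852474) and Igfbp5 (minus strand, 72857932 to 72874884) do so on chromosome 1 with 5.46 kb between them. In each pair the minus-strand gene rose and the plus-strand gene had at most 16 reads in any library. Apart from Igfbp1, no tested gene lay within 500 kb of Igfbp3, and 3 lay within 500 kb of Igfbp5, with 0 called and a median log2 fold change of -0.04. Igfbp4 (plus strand, 99041244 to 99054392) lies elsewhere on chromosome 11, Igfbp6 (plus strand, 102144362 to 102149511) on chromosome 15 and Igfbp7 (minus strand, 77349240 to 77408041) on chromosome 5. Around Igfbp6, 9 of 22 tested neighbours fell and 2 rose, around Igfbp4, 9 of 15 fell and 1 rose, and around Igfbp7, 2 of 9 fell and 3 rose, against 22.5% lower and 19% higher among all tested genes. These counts were made without GC correction. The neighbours that fell include epithelial markers of the list used below, Krt8 and Krt18 near Igfbp6 and Hopx near Igfbp7. A part of chromosomal position in these counts was not tested. All 7 are protein-coding, and the coordinates are those of GENCODE M21 on GRCm38.

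Per kilobase of the deposited gene length, 2 members made up nearly all of the family. In the Jun-cKO-labelled libraries Igfbp7 stood at 522 ± 41.9 CPM per kb and Igfbp4 at 397 ± 47.0 (SD), followed by Igfbp3 at 49.2 ± 0.784 and Igfbp5 at 13.3 ± 1.94. In the Jun-Ctrl libraries Igfbp4 stood at 449 ± 14.9 CPM per kb and Igfbp7 at 421 ± 8.42, followed by Igfbp3 at 16.4 ± 0.45 and Igfbp5 at 5.95 ± 0.539. Igfbp6, Igfbp1 and Igfbp2 overlapped with each other in Jun-cKO-labelled cells, all under 1 CPM per kb. In Jun-Ctrl cells Igfbp6, at 3.06 and 5.22 CPM per kb, came close to Igfbp5, at 6.33 and 5.57, while Igfbp1 and Igfbp2 were again under 1. The order of Igfbp7 and Igfbp4 rests on the length used. With the longest GENCODE transcript, which is 3831 bases for Igfbp4 against 2066 in the deposited table, Igfbp7 led in both groups, and with no length Igfbp4 led in all 4 libraries.

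Shares within a library do not depend on scaling between libraries, but they were not corrected for GC content. With that correction the log2 fold change was 1.67 for Igfbp3 and 1.16 for Igfbp5, against 1.58 and 1.15 without it. For Igfbp7 it was 0.76 against 0.31, and for Igfbp4 0.07 against -0.17. Igfbp3 held 4.75% and 5.30% of the summed CPM per kb of the family in the Jun-cKO-labelled libraries and 1.90% and 1.76% in the Jun-Ctrl libraries. Igfbp5 held 1.40% and 1.30% in Jun-cKO-labelled and 0.719% and 0.609% in Jun-Ctrl libraries. The size of a share rests on the length used: with no length, Igfbp5 averaged 4.69% in Jun-cKO-labelled and 2.30% in Jun-Ctrl libraries. Igfbp7 held 52.7% and 53.7% against 47.1% and 46.7%, and Igfbp4 held 41.1% and 39.7% against 49.8% and 50.2%. Within a library, Igfbp7 was thus 1.28 and 1.35 times Igfbp4 in the Jun-cKO-labelled cells and 0.947 and 0.93 times Igfbp4 in the Jun-Ctrl cells. The groups did not overlap in any of these shares. Among the levels of single tested genes, 35.4% did not overlap as higher and 35.9% as lower. With the GENCODE length, Igfbp4 averaged 26.5% in Jun-cKO-labelled and 34.8% in Jun-Ctrl libraries, and with no length 49.6% and 61.0%. For Igfbp3, Igfbp4, Igfbp5 and Igfbp7 the groups stayed apart, in the same direction, under all 3 choices of length. The summed level of the family was 1048 and 918 CPM per kb in the Jun-cKO-labelled libraries and 880 and 914 CPM per kb in the Jun-Ctrl libraries, a difference smaller than the gap between the Jun-cKO-labelled libraries. With the GENCODE length it was 856 and 755 against 683 and 708 CPM per kb. There the groups did not overlap, and the difference of the means was larger than the gap between the Jun-cKO-labelled libraries. With no length the groups overlapped, at 1768 and 1539 against 1492 and 1546 CPM. With 2 libraries against 2 an exact permutation test cannot go below p = 0.333, so no test is given for the shares.

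**Figure D3:**
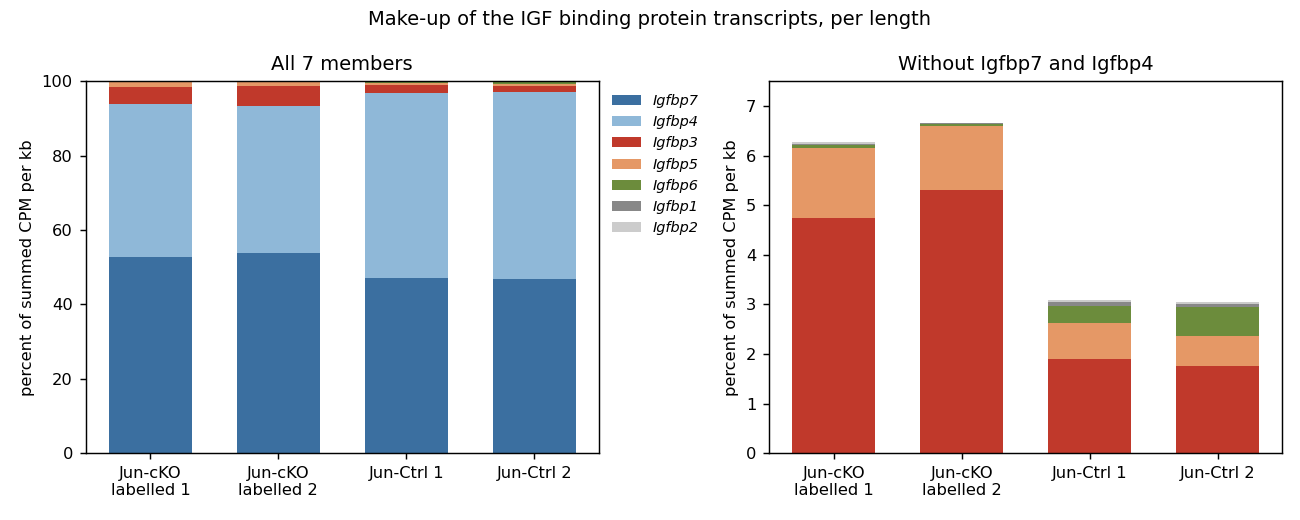
Share of each member in the summed CPM per kb of the 7 genes, as stacked bars for each library, with all members on the left and without Igfbp7 and Igfbp4 on the right on a smaller axis. Igfbp3 makes up 4.75% and 5.30% in the Jun-cKO-labelled libraries, against 1.90% and 1.76% in the Jun-Ctrl libraries.

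**Figure D4:**
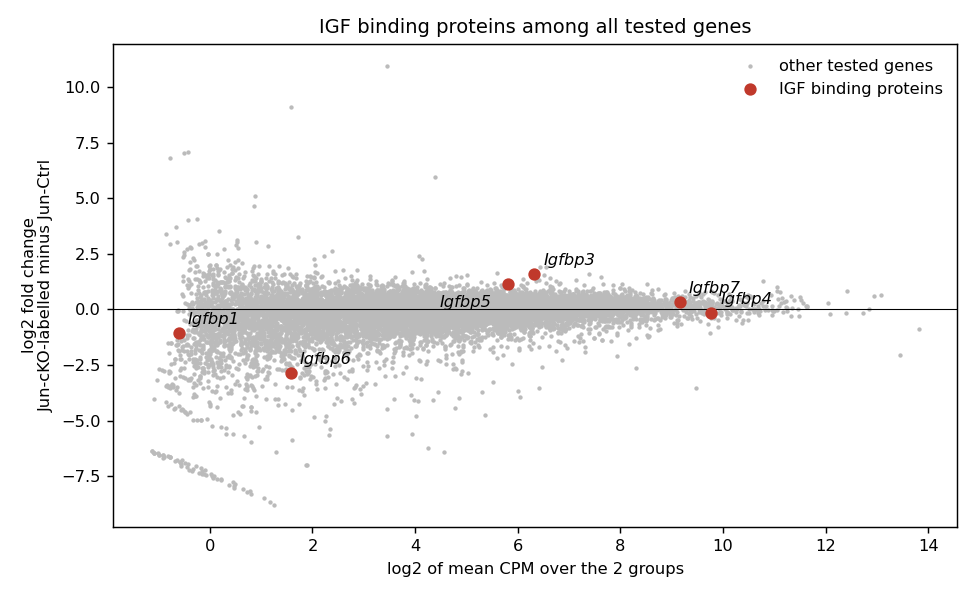
Log2 fold change of each tested gene against the log2 of its mean CPM, with the 6 tested members in red. Igfbp3 lies at 1.58 and Igfbp5 at 1.15, at the upper edge of genes of like level, and Igfbp4 and Igfbp7 lie near 0 among the most abundant genes.

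Of the other genes of the IGF system, 79 on the lists used here had a row and 64 were tested, of which 8 rose and 22 fell. That is 46.9% called, against 41.5% of all tested genes, with a median log2 fold change of -0.05 against 0.01. The share called in either direction was near the background, but falls outnumbered rises. Among all tested genes 22.5% fell and 19% rose, which is also the background for each IGF list below. Among the ligands, Igf2 was by far the most abundant. It had 10907 and 9511 CPM in Jun-cKO-labelled cells and 18450 and 18924 CPM in Jun-Ctrl libraries (log2 fold change -0.87, SE 0.15, adjusted p = 8.65e-06). Igf1 stood at 307 ± 17.8 CPM in Jun-cKO-labelled and 225 ± 6.4 CPM in Jun-Ctrl libraries (log2 fold change 0.45, SE 0.12, adjusted p = 0.00157), a call that ended after GC correction (0.20, adjusted p = 0.118) and without Jun-Ctrl replicate 2 (0.40, adjusted p = 0.056). Ins1 had 0 reads and Ins2 at most 2 reads in any library. Per kilobase, Igf2 was 2.46 and 2.45 times the summed binding proteins in the Jun-cKO-labelled libraries and 4.95 and 4.89 times in the Jun-Ctrl libraries. The groups did not overlap in this ratio. Among single tested genes, 35.9% did not overlap as lower and 35.4% as higher. Igf2 exceeded the binding proteins in every library.

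Among the receptors, Igf1r, the signalling receptor for both IGFs, fell. It had 62.4 and 50.8 CPM in Jun-cKO-labelled cells and 96.5 and 93 CPM in Jun-Ctrl libraries (log2 fold change -0.73, SE 0.12, adjusted p = 5.22e-06). Igf2r, which clears IGF2, was at -0.10 (SE 0.13) and the insulin receptor Insr at -0.10 (SE 0.16), and neither passed. Insrr, the insulin receptor-related receptor, had 6 reads in all and was not tested.

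On the list of the carrier subunit, proteases and protease inhibitors, 2 of 8 tested genes rose and 2 fell. Adam9, a membrane protease that can cut IGFBP5, rose 1.87-fold and stood at 63.6 and 75.9 CPM in the Jun-cKO-labelled and 41.7 and 31.2 CPM in Jun-Ctrl libraries. Stc1, a stanniocalcin that inhibits PAPP-A, rose 1.49-fold and stood at 264 and 207 CPM in the Jun-cKO-labelled and 170 and 147 CPM in Jun-Ctrl libraries. Htra1, a secreted protease that cuts IGFBP5 and itself has an IGFBP-like domain, fell 3.70-fold and stood at 1.25 and 1.33 CPM in the Jun-cKO-labelled and 5.03 and 4.28 CPM in Jun-Ctrl libraries. Ctsd, cathepsin D, was at -0.31 on the log2 scale (adjusted p = 0.0376), a call that ended after GC correction (-0.01, adjusted p = 0.941) and without Jun-cKO-labelled replicate 2, Jun-Ctrl replicate 1 or Jun-Ctrl replicate 2 (adjusted p = 0.234, 0.11 and 0.177). Igfals, the carrier subunit made by liver, had 0 reads in all 4 libraries.

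Of 8 tested genes for related proteins with an IGFBP-like domain, 4 fell and 1 rose, against 22.5% lower and 19% higher among all tested genes. Cyr61 (Ccn1), a matricellular protein, fell 1.61-fold and stood at 374 and 279 CPM in the Jun-cKO-labelled and 554 and 499 CPM in Jun-Ctrl libraries. Ctgf (Ccn2) fell 1.30-fold (adjusted p = 0.00781), which did not hold without Jun-cKO-labelled replicate 1 or Jun-Ctrl replicate 1 (adjusted p = 0.0818 and 0.0735), Htra1 is also on this list, and Nov (Ccn3) was at -0.34 (adjusted p = 0.0201). Nov lost its call in DESeq2 (adjusted p = 0.0858) and without Jun-cKO-labelled replicate 1, Jun-Ctrl replicate 1 or Jun-Ctrl replicate 2 (0.226, 0.144 and 0.0696). Crim1, a transmembrane protein, rose 1.59-fold. Without Jun-Ctrl replicate 1, 2 of these genes fell and 1 rose, and after GC correction 4 fell and 2 rose.

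Among 6 tested cell surface partners, Cd93, an endothelial receptor for IGFBP7, rose and Itga5 and Lrp1 fell, and without Jun-cKO-labelled replicate 2, 3 rose and 2 fell. Cd93 had 212 and 208 CPM in Jun-cKO-labelled cells and 156 and 161 CPM in Jun-Ctrl libraries (adjusted p = 0.0036, and 0.0831 without Jun-Ctrl replicate 1). Itga5, the integrin subunit through which IGFBP1 acts, fell 2.80-fold and stood at 17.6 ± 0.55 CPM in the Jun-cKO-labelled and 49.6 ± 7.73 CPM (SD) in Jun-Ctrl libraries. Lrp1, a scavenger receptor that binds IGFBP3, fell 3.45-fold and had 11 and 12 reads against 64 and 23, and lost its call without Jun-cKO-labelled replicate 1 (adjusted p = 0.0744) or Jun-Ctrl replicate 1 (0.056).

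Of 36 tested genes of IGF signalling and feedback, 12 fell, 3 rose and 21 did not pass, against 22.5% lower and 19% higher among all tested genes. After GC correction 12 fell and 7 rose, and 5 rose without Jun-cKO-labelled replicate 1 and 2 without Jun-Ctrl replicate 2. The falls included Rptor, the mTORC1 scaffold, at 2.12-fold, Akt1, the kinase downstream of PI3K, at 1.73-fold, the adaptor gene Grb2 at 1.67-fold and Pik3r2, a PI3K regulatory subunit, at 12.3-fold. Pik3r2 was rare, with 3 and 2 reads in the Jun-cKO-labelled and 41 and 24 reads in the Jun-Ctrl libraries. Of 3 genes for IGF2 mRNA-binding proteins, which bind RNA and are not IGF binding proteins, Igf2bp2 fell 1.76-fold, which DESeq2 did not call (adjusted p = 0.065).

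**Figure D5:**
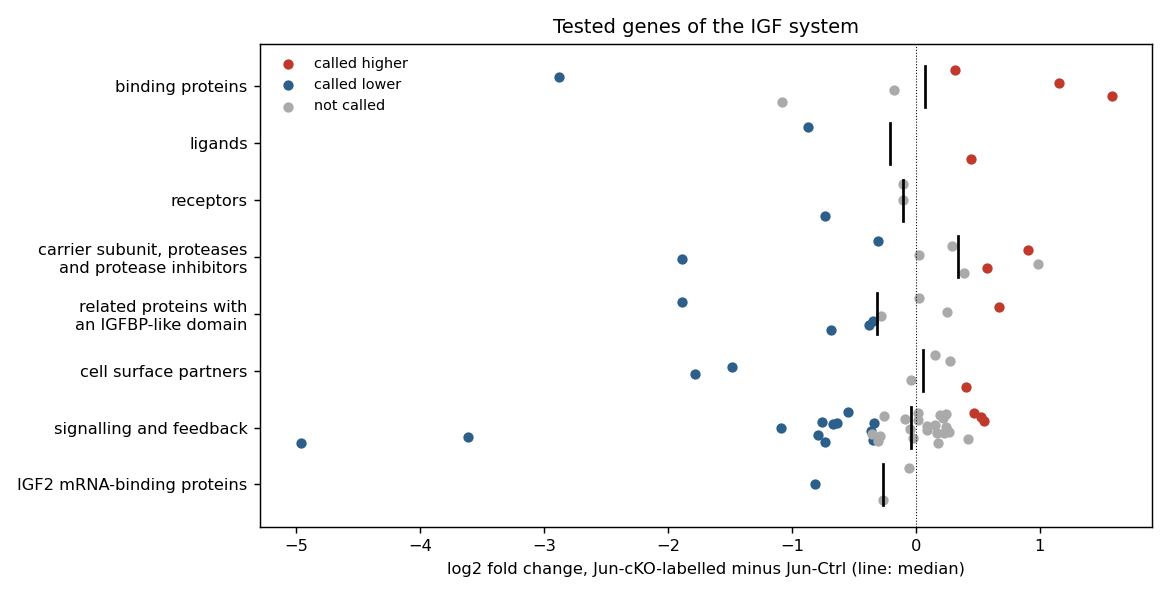
Log2 fold change of each tested gene on the 8 lists of the IGF system, with called genes in red (higher) or blue (lower), others in grey and the list's median as a line. Htra1 and Htra3 stand on 2 lists, and the binding proteins span from -2.88 for Igfbp6 to 1.58 for Igfbp3.

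Markers of other lung cells moved in the same comparison, in which 22.5% of all tested genes fell and 19% rose. Of 21 epithelial markers 20 fell and 0 rose, and the summed level was 219 and 216 CPM in the Jun-cKO-labelled and 1923 and 2027 CPM in Jun-Ctrl libraries, led by Sftpc, a surfactant protein, and Ager, a marker of alveolar type 1 cells. Of 12 tested fibroblast and pericyte markers 7 fell and 0 rose, with sums of 2669 and 2248 against 3070 and 2524 CPM, most of it Fn1, which stood at -0.09 on the log2 scale, while Col1a2 fell 3.25-fold. Of 5 smooth muscle markers 4 fell, with sums of 15.0 and 15.8 against 86.0 and 85.8 CPM, led by Acta2 and Tagln. Of 4 tested mesothelial markers Gpm6a rose and Msln fell 27.9-fold, with sums of 317 and 335 against 269 and 241 CPM. Most of each sum was Gpm6a, with means of 322 and 219 CPM, while the median log2 fold change of the list was -0.43. Of 9 tested immune markers 8 fell, with sums of 210 and 185 against 473 and 465 CPM, led by S100a9 and S100a8, and Cd3e was at 0 in all libraries. On the epithelial, fibroblast and pericyte, smooth muscle and immune lists the called markers fell, as Igfbp6 did, and their part in its change was not tested. Of 9 tested lymphatic markers 5 rose and 1, Flt4, fell, with sums of 22289 and 22490 against 17246 and 15992 CPM. Of 13 tested blood endothelial markers 5 rose and 5 fell, with sums of 2182 and 2116 against 2045 and 2011 CPM, led by Ednrb and Nr2f2, and of 8 markers of all endothelium 3 rose, among them Cldn5, and 1 fell, with sums of 4324 and 4399 against 3586 and 3931 CPM, led by Egfl7. Without Jun-Ctrl replicate 1, 2 blood endothelial and 1 of the general endothelial markers rose, without Jun-Ctrl replicate 2, 3 lymphatic markers rose, without Jun-cKO-labelled replicate 2, 3 blood endothelial markers rose, and after GC correction 5 general endothelial markers rose and 0 fell. On the lymphatic list the median log2 fold change was 0.42, and 0.20 after GC correction. Its called markers other than Flt4 rose, as Igfbp3, Igfbp5 and Igfbp7 did, and their part in the change of these 3 members was not tested.

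By distance between log2 CPM profiles centred on each gene's mean over the 4 libraries, with 0.5 CPM added, the genes most like Igfbp4 among 10036 candidates with a mean of at least 50 counts were Hint3, Actb and Ubr4, at distances of 0.0155, 0.0168 and 0.0181. Those most like Igfbp6 among 10037 candidates were Dctn1, Ap1s1 and Prkag2os1, at 0.335, 0.335 and 0.337. Over 4 libraries that fall into 2 groups, such likeness mostly repeats the size of the group difference, which was -2.54, -2.29 and -2.18 on the log2 scale for the genes nearest to Igfbp6.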

How the data were processed

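The authors deposited raw read counts per gene, 1 column for each of 4 libraries, with a gene length. Per the submitters' processing notes the build was mm10, and the tools listed, with no roles, were edgeR 3.28.1, STAR 2.7.2a and featureCounts 1.6.4. For annotation and strand setting, nothing is given in the sources used here. Per the labels' protocols, amplification of the RNA used the RiboAmp HS PLUS kit, followed by sequencing with reads of 79 bases. Reads carry no molecular identifiers. The exact Poisson intervals cover the counting error of reads only, while the intervals of the fold come from the edgeR fit and also hold the spread among libraries.

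Counts were tested over all genes with edgeR 4.0.16 in R 4.3.3 (glmQLFit, glmQLFTest) after filterByExpr, which left 12656 genes, and TMM scaling, as Jun-cKO minus Jun-Ctrl without a block. Calls are at a Benjamini-Hochberg adjusted p of 0.05. Standard errors are the fold change over the root of F. The GC correction uses loess (span 0.5) on the longest GENCODE M21 transcript, known for 96.3% of tested genes, with the curve drawn through genes over 2 log2 CPM. DESeq2 1.42.0 and limma 3.58.1 served as alternatives.

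The members, the gene lists and the naming rule were chosen with earlier results of these data known. The rule takes all members, Jun, IGF ligands and receptors, at most 4 called genes of each other IGF list by p, the 2 most abundant markers of each cell type and the 3 genes nearest in pattern to 2 members. Nov, Igfals, Polr2b, Flt4, Ccl21a, Cd3e, Prox1, Krt8, Krt18 and Hopx were named after their values were seen.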

Additional observations from a re-analysis of the deposited data

How the results depend on the processing

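Igfbp3 and Igfbp5 were called in 15 of 15 alternatives, with log2 fold changes of 1.52 to 1.67 and 0.99 to 1.29, and Igfbp6 in 14 of the 14 that tested it, with -3.45 to -2.36. Igfbp7 was called in 9 of 15, Igfbp4 in 0 of 15 and Igfbp1 in 0 of the 12 that tested it. Igfbp4 turned to 0.0718 after GC correction and to 0.070 with the replicate block added, and the cause was not tested. With the filter of 50 counts in 2 libraries 0 members were called lower, because Igfbp6 was not tested. With 1 library left out, 2 to 3 members were called higher and 1 lower, 6 to 11 other IGF genes higher and 15 to 23 lower, and over all genes 1177 to 2214 higher and 1815 to 2656 lower. Against 2408 higher and 2843 lower calls over all genes, DESeq2 made 1484 and 1905. Leaving out Jun-Ctrl replicate 1 gave the lowest counts, 1177 higher and 1815 lower, and leaving out Jun-Ctrl replicate 2 gave 1239 higher. The labels give no replicate numbers that pair the groups. Deviations of libraries with the same mark correlated at 0.0972 across genes. The replicate block gave 2521 higher and 2905 lower calls over all genes, and 3 higher and 1 lower among the members. Depth limits Igfbp1, Igfbp2 and Igfbp6, where 3 counts equal 0.182 to 0.459 CPM.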
